A study of Mus musculus with 267 samples.

Results

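Of the 4677 sites around which tags had been counted in Egr2flfl and LyzMCreEgr2flfl macrophages, 1865 had no called PU.1 peak. The 4677 sites are a set that the deposited tables name as EGR2 peaks induced at 24 h of IL-4. All overlapped an EGR2 peak of C57 macrophages at 24 h, although 12 of the 1865 also overlapped a basal EGR2 peak. How the 4677 were drawn from all such peaks is not given. Each is listed with its nearest annotated gene. A site was taken when the 300 bp around its centre shared no base with any peak of the reproducible PU.1 lists of C57 macrophages, basal or at 24 h of IL-4. The remaining sites were 1982 with a basal PU.1 peak and 830 with a PU.1 peak only at 24 h, and they are given for comparison. The sites were thus chosen by EGR2 peaks and by PU.1 peaks of C57 cells. EGR2 at 24 h and the absence of PU.1 peaks are therefore descriptions of the choice and not findings. The Egr2flfl and LyzMCreEgr2flfl libraries took no part in the PU.1 rule. Whether they took part in drawing the 4677 sites is not known.

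The series holds 267 ChIP-seq samples of mouse bone marrow-derived macrophages (BMDMs), which are macrophages grown from marrow for 7 days in M-CSF. The 4 groups compared here all carried loxP-flanked Egr2 alleles on both chromosomes. Egr2flfl cells kept Egr2, LyzMCreEgr2flfl cells also carried Cre under the LyzM (lysozyme) promoter, which deletes the floxed gene in the myeloid lineage, and each genotype was left basal or given IL-4 at 20 ng/mL for 24 h. H3K27ac, H3K4me2, STAT6, PPARγ, PU.1 and C/EBPβ each had 2 libraries per group and Pol II had 1 with a sample label. Nothing in the labels says that the 2 libraries came from separate animals, so the p-values measure only the spread between these libraries. No EGR2 library of these genotypes was analysed here, so the loss of EGR2 protein could not be read at the sites.

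IL-4 acts on macrophages through its receptor, JAK kinases and the transcription factor STAT6, which enters the nucleus within minutes and turns on genes of the alternatively activated state. EGR2 is a zinc finger factor of the early growth response family that binds GC-rich sequence, and its own gene is induced by IL-4 in macrophages. PU.1 is the lineage-determining ETS factor that opens and marks most macrophage enhancers, usually together with C/EBP and AP-1 proteins. H3K27ac marks active enhancers and promoters, H3K4me2 marks both primed and active ones, and PPARγ is a lipid-activated nuclear receptor that IL-4 also induces. In bulk chromatin, fewer cells carrying a mark and less of it per cell cannot be told apart.

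The sequences of 8 sites show what lay under EGR2 where no PU.1 peak was called. They are 6 of the 10 sites with the smallest p-value for H3K27ac loss with Egr2 deletion, the site with the highest H3K27ac (near Zeb2) and the site with the highest STAT6 (near Klf6). Each is 300 bases of the plus strand from the NCBI RefSeq genome GRCm38.p6 (mm10), and sites are named by the nearest gene start and the distance to it in bp (plus is downstream). Capitals mark letters of 6 motifs on either strand, namely EGR (GNGTGGGNG), PU.1 (GGAAGT), STAT6 (TTC and GAA separated by 4 bases), AP-1 (TGANTCA), C/EBP (TTNNGCAA) and KLF/SP (GGGCGGG). A match is a run of letters and not a measured binding site.
5330417H12Rik -40514, chr7:107665525-107665824, intron of Ppfibp2: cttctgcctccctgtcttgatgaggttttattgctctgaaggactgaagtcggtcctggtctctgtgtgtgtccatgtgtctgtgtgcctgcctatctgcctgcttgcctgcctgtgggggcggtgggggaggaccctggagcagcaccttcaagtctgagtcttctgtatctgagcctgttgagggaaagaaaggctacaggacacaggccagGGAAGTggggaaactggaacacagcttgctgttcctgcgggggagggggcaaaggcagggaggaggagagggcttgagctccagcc
Sema4b +15898, chr7:80202589-80202888, intron of Sema4b: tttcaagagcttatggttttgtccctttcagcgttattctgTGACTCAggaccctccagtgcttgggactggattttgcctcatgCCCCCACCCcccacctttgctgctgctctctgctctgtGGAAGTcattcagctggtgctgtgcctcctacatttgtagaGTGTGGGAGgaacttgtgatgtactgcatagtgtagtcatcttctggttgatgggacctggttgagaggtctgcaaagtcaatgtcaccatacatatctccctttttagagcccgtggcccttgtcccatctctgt
Tnfrsf12a +662, chr17:23676656-23676955, intron of Tnfrsf12a: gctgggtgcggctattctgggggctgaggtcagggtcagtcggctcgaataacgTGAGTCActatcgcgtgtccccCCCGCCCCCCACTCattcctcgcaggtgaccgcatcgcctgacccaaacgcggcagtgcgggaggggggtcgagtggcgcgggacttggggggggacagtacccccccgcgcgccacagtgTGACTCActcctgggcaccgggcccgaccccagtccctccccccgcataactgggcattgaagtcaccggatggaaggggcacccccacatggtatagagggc
Tbc1d1 +143917, chr5:64300072-64300371, intron of Tbc1d1: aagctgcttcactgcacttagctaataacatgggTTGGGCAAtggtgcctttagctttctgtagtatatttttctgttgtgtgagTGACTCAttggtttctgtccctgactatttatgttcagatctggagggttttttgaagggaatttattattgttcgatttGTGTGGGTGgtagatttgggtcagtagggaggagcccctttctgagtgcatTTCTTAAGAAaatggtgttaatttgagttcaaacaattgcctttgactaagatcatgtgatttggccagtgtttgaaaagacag
E130309D02Rik -1499, chr5:143316709-143317008, intron of Zdhhc4: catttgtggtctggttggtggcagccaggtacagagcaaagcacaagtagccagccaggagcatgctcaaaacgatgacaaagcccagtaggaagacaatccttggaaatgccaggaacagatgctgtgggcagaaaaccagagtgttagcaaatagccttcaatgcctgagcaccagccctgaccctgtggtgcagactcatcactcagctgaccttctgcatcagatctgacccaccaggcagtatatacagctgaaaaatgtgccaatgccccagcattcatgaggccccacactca
Banp +87729, chr8:122037329-122037628, intron of Gm20388: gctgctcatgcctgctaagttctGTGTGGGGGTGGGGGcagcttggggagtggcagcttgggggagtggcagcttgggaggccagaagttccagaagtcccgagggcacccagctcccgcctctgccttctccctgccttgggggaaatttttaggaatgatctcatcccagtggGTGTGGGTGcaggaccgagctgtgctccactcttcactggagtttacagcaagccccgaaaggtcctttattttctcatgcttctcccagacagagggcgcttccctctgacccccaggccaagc
Zeb2 +7762, chr2:45109483-45109782, intron of Zeb2: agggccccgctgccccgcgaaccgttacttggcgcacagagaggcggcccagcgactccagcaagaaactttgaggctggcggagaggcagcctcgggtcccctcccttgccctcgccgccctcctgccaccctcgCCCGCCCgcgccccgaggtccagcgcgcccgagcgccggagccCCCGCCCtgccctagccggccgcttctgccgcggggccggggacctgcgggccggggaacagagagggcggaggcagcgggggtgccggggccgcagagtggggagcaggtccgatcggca
Klf6 +26997, chr13:5888329-5888628, intergenic: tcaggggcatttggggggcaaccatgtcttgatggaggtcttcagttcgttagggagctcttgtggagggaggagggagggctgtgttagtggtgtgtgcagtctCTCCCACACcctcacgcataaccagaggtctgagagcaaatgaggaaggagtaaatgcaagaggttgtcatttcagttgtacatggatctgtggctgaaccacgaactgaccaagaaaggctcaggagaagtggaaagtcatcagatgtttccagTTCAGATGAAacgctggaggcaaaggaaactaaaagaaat

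These sequences ranged from 3 EGR matches at Banp, the first pair overlapping as GTGTGGGGGTGGGGG, to no capital at all at E130309D02Rik. At Sema4b, EGR letters stood on both strands (CCCCCACCC and GTGTGGGAG), with an AP-1 and a PU.1 match beside them. At Tnfrsf12a the EGR match shared 2 bases with a KLF/SP match, in the run CCCGCCCCCCACTC. The 5330417H12Rik site held PU.1 letters and none of the other motifs, although no PU.1 peak was called within its 300 bp. The nearest C57 PU.1 peak lay 171 bp from its centre. Tbc1d1 held 1 match each for EGR, STAT6, AP-1 and C/EBP, and the Zeb2 site, which was 76.7% G and C, held KLF/SP letters only.

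EGR letters were present at 724 of the 1865 sites (38.8%), against 15.6% of sites with a basal PU.1 peak, 26.3% of sites with a PU.1 peak only at 24 h and 14.3% of 32815 RefSeq promoters of the same length. PU.1 letters were at 20.9%, 54.3%, 35.4% and 23.8%, so that the 3 classes of sites stood in the reverse order. The classes were set by PU.1 peaks, so their order for PU.1 letters, here and for the longer form below, partly follows from the choice. The longer PU.1 letters GAGGAAGT were found at 1.98% of the 1865 sites, 15.2% of basal PU.1 sites, 6.99% of sites with PU.1 at 24 h only and 3.20% of promoters. So 1141 sites lacked EGR letters, and the strict form GCGTGGGCG occurred at 0.375% (0.613% of promoters). EGR letters gathered at the centre: a 20-bp bin around it held a match at 10.2% of the sites without a PU.1 peak and at 3.23% of those with a basal one, and in the outermost bins the share was 0.643%.

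AP-1 letters were at 24.7% of the sites, C/EBP letters at 20.8%, the nuclear receptor letters AGGTCA at 20.0%, STAT6 letters at 16.2% and KLF/SP letters at 11%, where promoters had 7.81%, 10.8%, 16.3%, 6.94% and 25.5%. Among the basal PU.1 sites these shares were 25.3%, 21.4%, 20.9%, 23.8% and 5.95%. A pair of AGGTCA copies 1 base apart, the direct repeat read by PPARγ with its RXR partner, was found at 0 of the 1865 sites and at 0.0396% of promoters. NRF1 letters were likewise found at 0 of the sites (0.966% of promoters), and CTCF letters at 0.697% (0.558% of promoters).

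**Figure D1:**
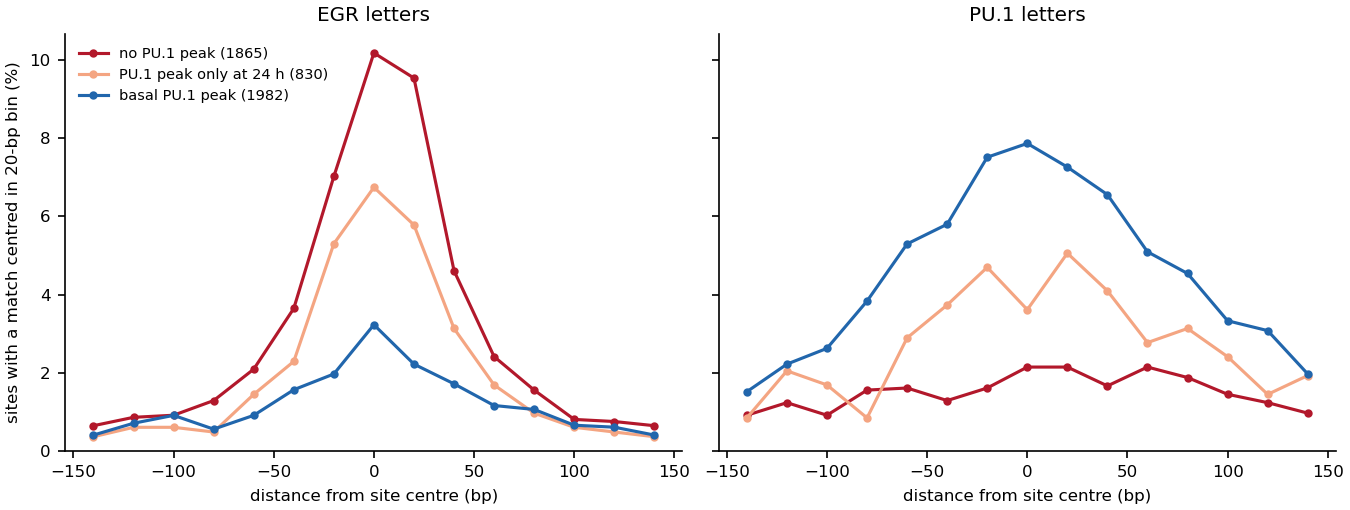
Share of sites (percent) whose EGR letters or PU.1 letters were centred in each 20-bp bin, by distance in bp from the site's centre, for sites without a C57 PU.1 peak, with a basal one and with one only at 24 h. EGR letters rose to 10.2% in the central bin at sites without a PU.1 peak and to 3.23% at basal PU.1 sites.

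The sites lay mostly away from gene starts. Introns held 1100 of them, intergenic sequence 747, untranslated exons 17 and coding exon 1, and 101 (5.42%) were within 1000 bp of the start of a protein-coding gene. The median distance to a gene start was 23451 bp and the median GC content was 48%, against 46.7% in both other classes. Distance to the nearest C57 PU.1 peak ran from 150 to 714010 bp with a median of 1955 bp, so that 376 sites were within 500 bp of such a peak and 304 were farther than 10000 bp. At the edge of the rule, Mink1 +682 and Tpcn2 +32249 had their centres 150 bp from a PU.1 peak and shared no base with it, with a mean of 24.8 and 1.91 PU.1 tags in Egr2flfl cells at 24 h. Cd47 +106936, which shared 1 base, was not taken and had 12.4 PU.1 tags.

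Open chromatin, read as an ATAC region of C57 cells centred within 150 bp, was present at 38.8% of the sites, at 76.9% of basal PU.1 sites and at 54.3% of sites with PU.1 at 24 h only. In C57 cells STAT6 peaks overlapped 4.40% of the 1865 sites in basal cells, 13.7% at 1 h, 14.1% at 6 h and 23.8% at 24 h. PPARγ peaks went from 1.72% basal to 19.9% at 24 h and C/EBPβ peaks from 7.40% to 25.4%. At basal PU.1 sites the 24 h shares were 84.0% for STAT6, 61.3% for PPARγ and 61.8% for C/EBPβ. At sites with PU.1 at 24 h only they were 66.0%, 40.1% and 39.0%. Of the 1865 sites, 817 had a 24 h peak of at least 1 of these factors, 111 had all 3 and 1048 had none.

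**Figure D2:**
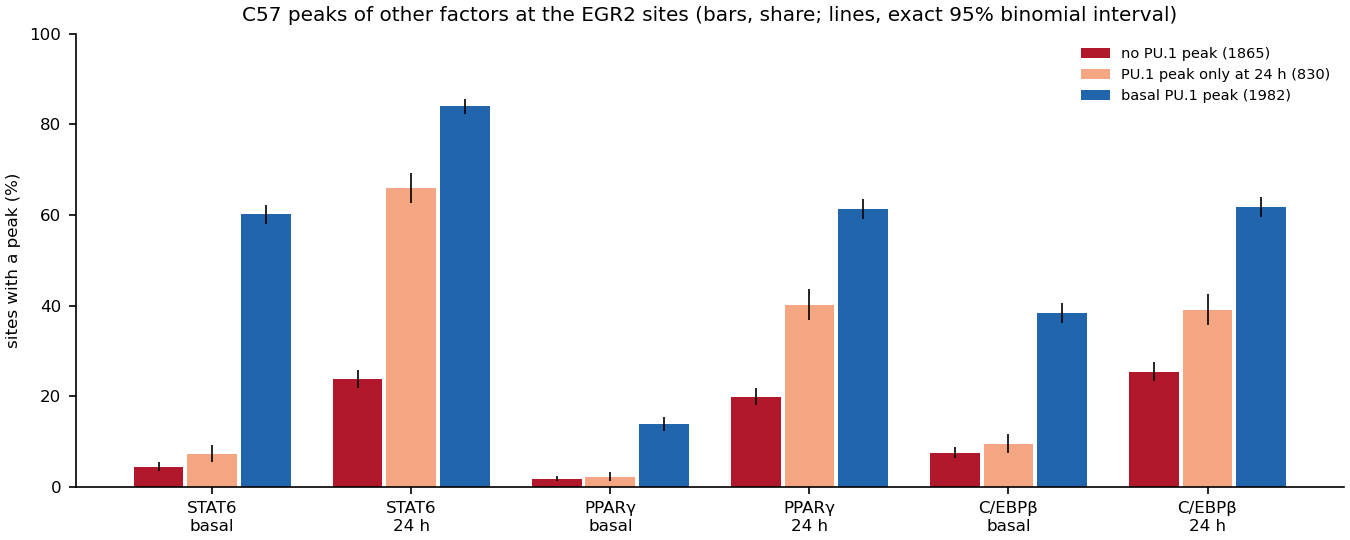
Share of sites (percent) overlapping a C57 peak of STAT6, PPARγ or C/EBPβ by time of IL-4, for sites without a PU.1 peak, with a basal one and with one only at 24 h, with exact 95% binomial intervals that cover counting error only. Sites without a PU.1 peak reached 23.8%, 19.9% and 25.4% at 24 h, below basal PU.1 sites at 84.0%, 61.3% and 61.8%. Sites with one only at 24 h lay between, at 66.0%, 40.1% and 39.0%.

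EGR2 itself read a median of 8.43 and 9.40 normalized tags at the sites in the 2 basal C57 libraries and 28.7 and 24.0 at 24 h, a level fixed by the way the sites were chosen. At 1 h the 2 libraries read 3.61 and 13.5 and at 6 h 8.73 and 23.4, so the replicates of those times stood far apart. Called EGR2 peaks overlapped 0.643% of the sites in basal C57 cells, 7.13% at 1 h and 11.1% at 6 h. At 24 h in the other strains EGR2 peaks overlapped 60.3% of the sites in BALB, 43.5% in SPRET, 28.1% in NOD and 18.6% in PWK, and 179 sites had one in all 4 while 545 had one in none. Many sites shared the highest EGR2 peak score, 1000, so the score did not rank them. The 2 named from it were the first by position. They lay in an intron of Dst, a cytoskeletal linker gene, and 50764 bp upstream of Il1r1, the interleukin-1 receptor gene. Dst read 75 and 111 EGR2 tags at 24 h and 7.02 and 13.4 in basal cells, and Il1r1 48.0 and 70.1 against 10.3 and 43.0.

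Tag values are reads per site scaled to 10000000 reads per library, counted over 300 bp for factors and 1000 bp for histone marks. The histone window reaches 500 bp to each side, so it can take in a PU.1 peak that lay outside the 300 bp of the rule. Library totals ran from 6346277 to 22837514 reads, so that 1 normalized tag stood for 0.635 to 2.28 reads. At the active promoters of C57 H3K27ac libraries, all 7 macrophage markers had a region and summed to 1959 to 4411 tags, T cell markers had none of 5, and B cell (2 of 4), fibroblast (1 of 4) and neutrophil (2 of 4) markers summed to 0.68 to 95.6. Replicate 2 of basal Egr2flfl and of both LyzMCreEgr2flfl groups stood apart for PPARγ, with 73.3 to 78.8% of the sites at 0. In the PU.1 libraries of Egr2flfl and LyzMCreEgr2flfl cells, which the PU.1 rule did not use, most of the sites read low, with medians of 1.63 to 4.28 PU.1 tags in the 8 libraries against 23.1 to 35.9 at the other sites. The exceptions were 33 to 46 sites per library that reached the other sites' median, and the highest of them read up to 126 tags.

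H3K27ac at the sites was low in basal cells, and its library medians were highest after IL-4 where Egr2 was kept. The median of the 1865 sites was 8.52 and 6.79 tags in the basal Egr2flfl libraries, 16.1 and 14.8 at 24 h of IL-4, 5.01 and 5.04 in basal LyzMCreEgr2flfl libraries and 6.23 and 5.80 at 24 h. Both Egr2flfl 24 h libraries stood above the other 6, and the groups did not overlap. The other 2812 sites read medians of 45.2 and 48.2 in Egr2flfl and 30.1 and 30.8 in LyzMCreEgr2flfl cells at 24 h. H3K4me2 medians at the 1865 sites were 18.9 and 18.2, 25.8 and 28.8, 15.5 and 16.2, and 17.3 and 18.5 in the same order of groups, again highest in Egr2flfl cells at 24 h.

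**Figure D3:**
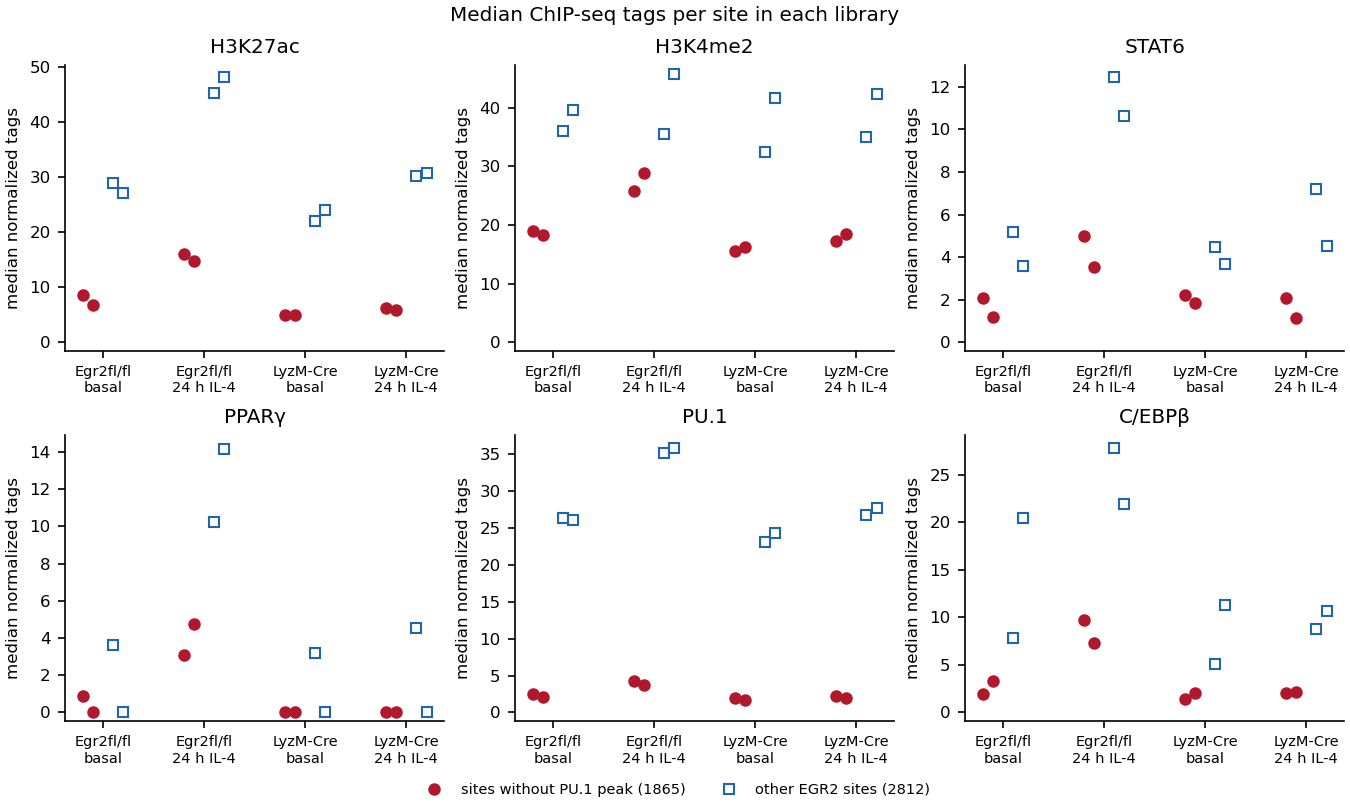
Median normalized tags per site (vertical axis) in each library of the 4 groups, for 6 targets (H3K27ac, H3K4me2 and the factors STAT6, PPARγ, PU.1, C/EBPβ) in a panel each, at the 1865 sites without a PU.1 peak (filled circles) and the other 2812 sites (open squares). In Egr2flfl cells at 24 h the filled circles stood at 16.1 and 14.8 for H3K27ac and at 4.28 and 3.71 for PU.1, each above the LyzMCreEgr2flfl 24 h libraries.

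Deletion of Egr2 lowered H3K27ac at 508 of the 1865 sites at 24 h and raised it at 11, by limma across all 4677 sites with a Benjamini-Hochberg adjusted p under 0.05. Over all sites 23.2% fell and 1.41% rose, and among the sites without a PU.1 peak 27.2% fell, against 14.9% of basal PU.1 sites and 34.1% of sites with PU.1 at 24 h only. The median log2 fold was -0.76 at the sites and -0.50 over all, with quartiles of -1.44 and -0.16 at the sites. With median-ratio scaling, which sets the median over all sites to 0, the medians were -0.28 and 0.00, and the calls became 240 lower and 83 higher at the sites, and 46.5% instead of 94.3% of the calls over all sites were decreases. Under either scaling the sites stood below the median of all sites, by 0.25 and by 0.28 log2. Without Egr2flfl 24 h replicate 1 or 2, 210 or 218 sites were called in either direction, and without LyzMCreEgr2flfl 24 h replicate 1, 315 were.

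The 10 sites with the smallest p-values were near Trim36, 5330417H12Rik, Sema4b, Alpk2, Tnfrsf12a, Tbc1d1, E130309D02Rik, Banp, Pzp and Rftn1, and all 10 kept their H3K27ac call under every alternative that was run. At some of them a C57 PU.1 peak lay within the histone window. Its distance from the centre was 171 bp at 5330417H12Rik, 207 bp at Tbc1d1, 424 bp at Trim36 and 457 bp at Alpk2. Sema4b encodes a membrane semaphorin. Its +15898 site, with EGR letters on both strands, read 29.8 and 30.5 H3K27ac tags in basal Egr2flfl cells, 40.2 and 30.2 at 24 h, 8.02 and 10.7 in basal LyzMCreEgr2flfl cells and 1.04 and 1.74 at 24 h. The Egr2flfl libraries were all above those with the deletion, and IL-4 took the site down in LyzMCreEgr2flfl cells, by 2.12 ± 0.42 log2 (SE, limma, adjusted p = 0.0016). At 24 h the deletion lowered it by 3.92 ± 0.42 log2 (limma, adjusted p = 4.9e-05). PU.1 tags there were 10.3 and 8.03 against 8.91 and 8.58, a log2 fold of -0.05 ± 0.38.

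The 5330417H12Rik -40514 site, in an intron of the liprin gene Ppfibp2, read 20.5 and 22.4 H3K27ac tags in basal Egr2flfl cells, 124 and 128 at 24 h, and 14 and 9.53 then 8.31 and 15.1 with the deletion. IL-4 raised it in Egr2flfl cells by 2.50 ± 0.35 log2 (limma, adjusted p = 7.7e-05), and with the deletion its 24 h libraries fell on both sides of the basal ones. The deletion contrast, which shares the Egr2flfl 24 h libraries, was -3.38 ± 0.35 log2 (limma, adjusted p = 4.7e-05). H3K4me2 fell as well, from 80.6 and 81.8 to 34.7 and 50.8 tags at 24 h (limma, adjusted p = 0.047).

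Trim36 +63425, intergenic near a tripartite motif ubiquitin ligase gene, read 113 and 82.1 H3K27ac tags in basal and 274 and 292 in 24 h Egr2flfl libraries, against 20.1 and 23, then 38.4 and 57.5 with the deletion. It was already lower without IL-4, by 2.12 ± 0.26 log2 (limma, adjusted p = 0.0021). Among the 1865 sites, 2 were lower for H3K27ac in basal cells with the deletion, where 0.192% of all sites were. The other site was Cyp1b1 -22798, near a cytochrome P450 gene, with 37.5 and 21.7 tags against 4.01 and 1.68. Both were named after their values were seen for this contrast.

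Tnfrsf12a encodes the receptor for the cytokine TWEAK, and its +662 site moved in opposite directions for the 2 marks. H3K27ac was 91.2 and 83.5 in basal Egr2flfl cells, 215 and 218 at 24 h, 66.2 and 75.1 in basal LyzMCreEgr2flfl cells and 58.2 and 66.2 at 24 h. H3K4me2 was 183 and 180, 106 and 133, 190 and 250, and 211 and 272 in the same order. At 24 h the deletion lowered H3K27ac by 1.79 ± 0.22 log2 (limma, adjusted p = 0.00011) and raised H3K4me2 by 1.00 ± 0.31 log2 (limma, adjusted p = 0.020), with no overlap between the genotypes for either mark.

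At Banp +87729, in an intron annotated to Gm20388 and with 3 EGR matches, H3K27ac read 15.3 and 17.7, 82.4 and 89.9, 10.0 and 7.29, and 14.6 and 9.87 tags. H3K4me2 read 21.6 and 30.8, 63.4 and 62.6, 16.9 and 17.5, and 23.8 and 15.4, and PU.1 read 0 and 0, 2.57 and 5.56, 0 and 0, and 0 and 0.50. All 3 were highest in Egr2flfl cells at 24 h and each fell with the deletion there (limma log2 fold -2.74 ± 0.36, -1.67 ± 0.36 and -1.98 ± 0.58), although the PU.1 values rest on few reads. Tbc1d1 +143917, near a Rab GTPase-activating protein gene, rose with IL-4 from 23 and 26.5 to 102 and 152 H3K27ac tags in Egr2flfl cells and read 15 and 18.5, then 20.8 and 23.8 with the deletion.

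Alpk2 +11498, in an intron of an alpha kinase gene, read 279 and 301 H3K27ac tags in Egr2flfl cells at 24 h and 73.8 and 88.2 with the deletion (limma log2 fold -1.83 ± 0.21). E130309D02Rik -1499, whose sequence held none of the motif letters, read 74.4 and 66.8 against 7.27 and 8.13 (-3.04 ± 0.39). The site 6781 bp upstream of Pzp, a protease inhibitor gene, read 36.2 and 26.3 against 0 and 0.58, and C/EBPβ there was 34.5 and 10.6 against 0.68 and 2.14. Rftn1 +10788, in an intron of the lipid raft gene raftlin, read 82.4 and 114 against 13.5 and 16.8 for H3K27ac, and 55.6 and 39.0 against 4.07 and 3.22 for C/EBPβ. At Pzp and Rftn1, H3K27ac, H3K4me2 and C/EBPβ all passed the test as lower. The genotypes did not overlap for H3K27ac at 24 h at these 4 sites, which their choice by p-value nearly fixes.

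**Figure D4:**
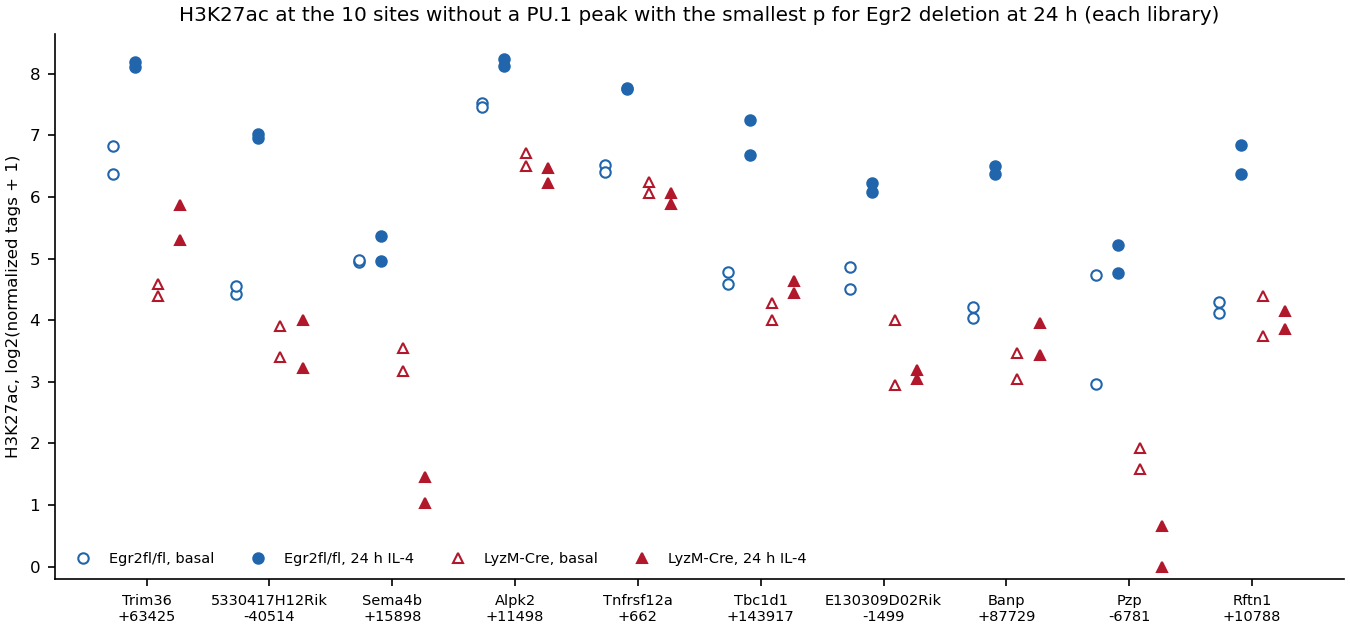
H3K27ac normalized tags in each library at the 10 sites with the smallest p-values for the deletion at 24 h, by genotype and IL-4, 2 libraries per group. The Egr2flfl 24 h points lay above the LyzMCreEgr2flfl 24 h points at all 10 sites, which their choice by p-value nearly fixes. An example is 124 and 128 against 8.31 and 15.1 at 5330417H12Rik.

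The 11 sites with more H3K27ac after deletion had small changes, from 0.55 to 1.52 log2. Slc45a1 +82613, in an intron of the corepressor gene Rere, read 395 and 349 in Egr2flfl and 655 and 702 in LyzMCreEgr2flfl cells at 24 h, and already 361 and 407 against 576 and 600 in basal cells. Bahcc1 +5140 read 15.1 and 14.8 against 37.4 and 53.4, with a log2 fold of 1.52 ± 0.33 (limma, adjusted p = 0.0034). Others were near Gm5426, Otulin, Rasgrp1, Bcl2l11 (the cell death gene Bim), Trim30c, Kctd21, Tomm20 and Adam9, and they were named after their values were seen.

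IL-4 raised H3K27ac at 429 of the 1865 sites in Egr2flfl cells and lowered it at 23, against 25.6% and 2.54% of all sites, with a median log2 fold of 0.60 at the sites and 0.50 over all. In LyzMCreEgr2flfl cells it raised 158 and lowered 60, against 14.4% and 4.08% of all sites, with medians of 0.11 and 0.14. Median-ratio scaling changed the Egr2flfl split to 216 higher and 107 lower and the LyzMCreEgr2flfl split to 131 and 97. Over all sites it gave 619 higher and 511 lower in Egr2flfl and 574 and 333 in LyzMCreEgr2flfl cells. The difference between the responses, tested site by site as the interaction of genotype and IL-4, passed the limma threshold at 0 of the 1865 sites. At an unadjusted p under 0.05 it did so at 265, and edgeR and DESeq2 on the recovered reads also called 0. Without Egr2flfl 24 h replicate 1 or 2 or basal replicate 2, the Egr2flfl response was called at 205, 237 and 286 sites.

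The 5 largest rises in Egr2flfl cells were at a pair of sites near Chic2 and near Il31ra, Mef2c and Ear14. They were chosen by their Egr2flfl 24 h libraries, which the deletion contrast shares, so their deletion values partly follow from the choice. Ear14 +16784, among the eosinophil-associated ribonuclease genes, rose from 14.5 and 3.39 to 143 and 156 in Egr2flfl cells and from 4.01 and 4.48 to 139 and 202 with the deletion. Chic2 +95268 rose from 5.11 and 2.04 to 221 and 177, and with the deletion from 3.01 and 2.24 to 104 and 134. At both sites the 24 h libraries of the genotypes did not pass the test for a difference (limma log2 fold 0.17 ± 0.44 and -0.74 ± 0.37). The Ear genes are near-identical copies, so reads at Ear14 may have been shared among them.

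Il31ra +42611, in an intron of the interleukin-31 receptor gene, read 0.85 and 1.36, 65.3 and 115, 1.00 and 3.36, and 12.5 and 22.6 H3K27ac tags in the 4 groups, so IL-4 raised it in both genotypes, by 5.39 log2 in Egr2flfl and 2.60 log2 in LyzMCreEgr2flfl cells. The difference between these responses did not pass the test (interaction -2.80 ± 0.74 log2, limma, adjusted p = 0.17). The nearest C57 PU.1 peak lay 285 bp from the centre. PU.1 read 1.70 and 1.04, 43.7 and 40.8, 0 and 2.44, and 6.68 and 6.56 tags at this site and fell by 2.50 ± 0.59 log2 with the deletion at 24 h (limma, adjusted p = 0.014). The H3K27ac difference at 24 h ended without Egr2flfl 24 h replicate 2 (adjusted p = 0.11) or LyzMCreEgr2flfl 24 h replicate 1 (0.062). Mef2c -479848, far upstream of a MADS-box factor gene, read 55.3 and 42.4 in Egr2flfl cells at 24 h and 3.12 and 4.64 with the deletion. Chic2 +75237 read 28.1 and 25.7 against 2.08 and 1.74, and was among the 12 sites that were lower for H3K27ac, H3K4me2, PU.1 and C/EBPβ together.

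H3K4me2 fell with the deletion at 24 h at 248 of the 1865 sites (13.3%) and rose at 3, where 8.94% and 0.15% of all sites did. It fell at 16.4% of sites with PU.1 at 24 h only and at 1.72% of basal PU.1 sites. The medians were -0.47 log2 at the sites and -0.16 over all. The 3 that rose were Tnfrsf12a +662, Aes +1076 (44.0 and 59.8 against 102 and 109 tags) and Zfhx3 +761868 (19.3 and 4.51 against 31 and 18.5, where the libraries of the genotypes overlapped). Fewer sites were called without Egr2flfl 24 h replicate 1 or 2 (65 and 69) or LyzMCreEgr2flfl 24 h replicate 1 (128). Median-ratio scaling gave 99 lower and 17 higher, with medians of -0.32 at the sites and 0.00 over all. Over all sites it called 168 lower and 56 higher.

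The smallest p-values for H3K4me2 were at Fam49b -66022, Gse1 +148561 and Kcnj16 -152719. Fam49b -66022, in an intron of Asap1, read 4.51 and 5.66, 26.9 and 17.5, 4.93 and 2.63, and 0.72 and 0.77 H3K4me2 tags in the 4 groups, and fell by 3.70 ± 0.61 log2 with the deletion at 24 h (limma, adjusted p = 1.5e-06). PU.1 tags there were 30.0 and 17.9 in Egr2flfl and 8.91 and 6.06 in LyzMCreEgr2flfl cells at 24 h and also fell (limma, adjusted p = 0.025). Gse1 +148561 read 41.9 and 49.1 against 5.05 and 10.0, and Kcnj16 -152719, near a potassium channel gene, 24.7 and 14.1 against 0 and 2.31. For each of the 3 sites both Egr2flfl 24 h libraries stood above all others, which at 24 h their choice by p-value nearly fixes.

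IL-4 raised H3K4me2 in Egr2flfl cells at 195 sites (10.5%) and lowered it at 1, Atp5o +77657 (55.0 and 59.7 to 24.7 and 26), against 8.06% and 0.15% of all sites, and with median-ratio scaling it raised 60 and lowered 12 (134 and 48 over all sites). In the main fit it raised 16.3% of sites with PU.1 at 24 h only and 2.37% of basal PU.1 sites. With the deletion it raised 23 and lowered 1, Lrmda +119764 (34.5 and 28.9 to 12.3 and 8.46), against 1.13% and 0.0214%. Basal LyzMCreEgr2flfl cells had less H3K4me2 at 2 sites, Matk +2641 (14.4 and 15.7 against 1.41 and 3.50) and Chic2 +75237 (9.91 and 11.3 against 1.41 and 0.88), where 0.0855% of all sites were lower. The interaction was called at 0 of the 1865 sites (171 at an unadjusted p under 0.05, limma; 0 by edgeR and by DESeq2), and over all sites it was lower at 0.0428%. Without Egr2flfl 24 h replicate 1 or 2, or basal replicate 1 or 2, the Egr2flfl response was called at 50, 65, 109 and 92 sites.

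PU.1 tags, although low, fell with the deletion at 24 h at 122 of the 1865 sites (6.54%), where 9.36% of all sites fell and 0.0855% rose. They fell at 22.2% of sites with PU.1 at 24 h only and at 6.66% of basal PU.1 sites. The median log2 fold was -0.62 at the sites and -0.33 over all, and -0.38 and -0.04 with median-ratio scaling, which called 64 lower and 5 higher. Over all sites this scaling called 228 lower and 251 higher, in place of 438 and 4. Library medians were 2.55 and 2.09 in basal and 4.28 and 3.71 in 24 h Egr2flfl cells, and 1.93 and 1.63, then 2.23 and 2.02 with the deletion. All 122 calls were lost without Egr2flfl 24 h replicate 1 or replicate 2 (0 and 0), and without LyzMCreEgr2flfl 24 h replicate 1 or 2 there were 10 and 56, and without Egr2flfl basal replicate 1 or 2 65 and 76.

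Gm43191 -519, in an intron of the nucleotide sugar transporter gene Slc35a3 and 19330 bp from the nearest PU.1 peak of C57 cells, read 1.70 and 3.13, 19.7 and 20.4, 1.93 and 2.44, and 0 and 1.01 PU.1 tags in the 4 groups. H3K27ac (27.1 and 27 against 2.08 and 5.22) and H3K4me2 (20.4 and 26.5 against 2.17 and 3.08) were lower with the deletion at 24 h as well. Pars2 -4706, near a mitochondrial prolyl-tRNA synthetase gene, read 24.0 and 23.5 PU.1 tags against 2.23 and 2.02 (log2 fold -2.99 ± 0.48, limma, adjusted p = 0.0027), and its H3K27ac stayed under 5 tags in all 8 libraries. Gng8 +4957, near a G protein gamma subunit gene, read 30.8 and 24.1 PU.1 tags against 1.11 and 0. In each, the 2 Egr2flfl 24 h libraries were the highest of the 8. These 3 sites were taken by the smallest PU.1 p-values for the deletion, which nearly fixes the order of the genotypes at 24 h.

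IL-4 raised PU.1 tags at 76 sites in Egr2flfl cells (4.08%), where 8.19% of all sites rose and 0.0428% fell. The rule left out sites that gained a C57 PU.1 peak at 24 h, of which 20.6% rose. The lower share therefore partly follows from the choice. With the deletion IL-4 raised PU.1 tags at 12 and lowered them at 1, Eml4 -38903 (12.5 and 7.32 to 2.23 and 2.02), against 2.8% and 0.107%. Among the 12 was Slc7a14 +44059, where PU.1 went from 6.75 and 5.69 to 22.3 and 31.3 and STAT6 from 2.23 and 0 to 23.7 and 15.8 in LyzMCreEgr2flfl cells. Jun -84013, upstream of the AP-1 gene, rose for both as well, with PU.1 at 0 and 1.63, then 6.68 and 10.1. The Egr2flfl response was called at 0 and 0 sites without 24 h replicate 1 or 2, and at 6 and 6 without basal replicate 1 or 2.

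C/EBPβ fell with the deletion at 24 h at 225 sites (12.1%), where 8.25% of all sites fell, with a median of -1.36 log2 at the sites and -1.14 over all. It fell at 12.9% of sites with PU.1 at 24 h only (median -1.55) and at 2.72% of basal PU.1 sites (-0.87). Medians were 1.95 and 3.27 tags in basal and 9.68 and 7.31 in 24 h Egr2flfl cells, against 1.45 and 2.06, then 2.04 and 2.14. With median-ratio scaling the medians were -0.50 and -0.15 and 0 sites were called, and edgeR called 27 and DESeq2 5. Left out singly, Egr2flfl 24 h replicates 1 and 2 gave 0 and 1 calls and LyzMCreEgr2flfl 24 h replicates 1 and 2 gave 53 and 0.

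Tgif1 +72467, in an intron of Dlgap1 near a homeobox repressor gene, read 26 and 18.7 C/EBPβ tags in Egr2flfl cells at 24 h and was listed at 0 in the other 6 libraries (limma, adjusted p = 0.0010). Jarid2 -25201, near a polycomb cofactor gene, read 38.7 and 28.4 against 0.68 and 0. Lims1 +53391, in an intron of an adhesion adaptor gene, read 45.4 and 25.2 against 0.68 and 0, while H3K27ac there was 6.03 and 3.21 against 4.16 and 5.22 and did not pass the test. H3K27ac was called lower at Tgif1 and Jarid2, and both calls ended with median-ratio scaling (adjusted p = 0.061 and 0.14) and edgeR (0.052 and 0.12), that of Jarid2 also with DESeq2 (0.36). They also ended without Egr2flfl 24 h replicate 1 or 2 or LyzMCreEgr2flfl 24 h replicate 2 (0.059, 0.16 and 0.15 at Tgif1, and 0.25, 0.091 and 0.061 at Jarid2), and at Jarid2 without LyzMCreEgr2flfl 24 h replicate 1 (0.18). The 3 sites were taken by the smallest C/EBPβ p-values for the deletion, and all 3 C/EBPβ calls ended with median-ratio scaling (adjusted p of 0.13 to 0.14).

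IL-4 raised C/EBPβ at 50 sites in Egr2flfl cells (2.68%), against 2.1% of all sites, and with the deletion limma called 0 (93 at an unadjusted p under 0.05), edgeR 13 higher and 2 lower and DESeq2 1 higher. In Egr2flfl cells limma called 4.94% of sites with PU.1 at 24 h only and 0.353% of basal PU.1 sites higher. The median log2 response was 1.04 in Egr2flfl and 0.06 in LyzMCreEgr2flfl cells. The Egr2flfl count was 0 and 1 without 24 h replicate 1 or 2, and 0 and 3 without basal replicate 1 or 2.

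STAT6 tags in Egr2flfl cells had medians of 2.06 and 1.20 basal and 4.98 and 3.54 at 24 h, and with the deletion 2.23 and 1.84, then 2.06 and 1.13. IL-4 raised STAT6 at 94 sites in Egr2flfl cells, against 11.8% of all sites, and at 3 with the deletion, Slc7a14 +44059, Dhrs3 +84515 and Jun -84013, against 1.2%. The deletion contrast at 24 h had a median of -0.80 log2 at the sites and -0.79 over all (-0.24 and -0.15 with median-ratio scaling), and limma called 0 of the 1865 sites (261 at an unadjusted p under 0.05, and 0 by edgeR and by DESeq2), while 0.0214% of all sites fell. On simulated data limma recovered 43% of 4-fold and 89% of 16-fold STAT6 losses, at sites with more tags than most of the 1865. The count of 0 therefore does not show that STAT6 was unchanged. The smallest p-values were at Sema4b +19571 (22.4 and 13.3 in Egr2flfl against 0 and 1.13 in LyzMCreEgr2flfl cells at 24 h), Mmp12 +18450 (29.9 and 7.97 against 1.03 and 0) and Zeb2 -37504 (6.22 and 13.3 against 0 and 0), with limma adjusted p of 0.092, 0.11 and 0.12. With a pseudocount of 5, 47 sites were called and with replicate number as a block 58, and these 3 sites passed under both (adjusted p from 0.0012 to 0.0093). The Egr2flfl response was called at 0 and 9 sites without 24 h replicate 1 or 2 and at 14 without basal replicate 2.

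Limma gave no PPARγ call at any of the 4677 sites in any contrast, while edgeR and DESeq2 each called 1 of them, not among the 1865, for the IL-4 response of each genotype. Its medians at the 1865 sites were 3.07 and 4.73 in Egr2flfl cells at 24 h, 0.91 and 0 basal and 0 in all 4 LyzMCreEgr2flfl libraries. The deletion contrast had a median of -1.10 log2 (all sites -1.28, and -0.46 and -0.40 with median-ratio scaling), and limma called 0 sites, with 282 at an unadjusted p under 0.05 and 0 by edgeR and by DESeq2. With the spread of these PPARγ libraries limma could not call even large changes on simulated data, so the counts of 0 say nothing about whether PPARγ differed. The IL-4 response in Egr2flfl cells had a median of 1.18 (all sites 1.66), 0 calls, and 298 sites at an unadjusted p under 0.05. The 3 smallest deletion p-values were tied at Gpr155 -6535, Abhd16b -9441 and Klrb1f +6121, each with 3.07 and 3.15 tags in Egr2flfl cells at 24 h and listed at 0 elsewhere. Without Egr2flfl 24 h replicate 1 or 2 the deletion was called at 142 and 116 sites, and without LyzMCreEgr2flfl 24 h replicate 2 at 16. The highest level was at Mesp1 +12648, with 475 and 466 in Egr2flfl and 206 and 84.0 in LyzMCreEgr2flfl cells at 24 h.

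Pol II is given from 1 labelled library per group. A further 4 Pol II columns matched no sample label and were left out, so no replicate check was made. The median of the sites was 5.84 tags in basal and 8.51 in 24 h Egr2flfl cells, and 4.55, then 5.32 with the deletion. At 24 h, 459 sites (24.6%) read at least 2-fold lower with the deletion, where 22.2% of all sites did, and the median log2 fold was -0.24 (all sites -0.22). Mmp12 +17541, in an intron of the macrophage elastase gene, had the highest value, with 282 and 801 tags in Egr2flfl cells before and after IL-4 and 34.5 and 79.9 with the deletion. H3K27ac and H3K4me2 at that site did not pass the test for the deletion at 24 h (log2 fold -0.42 and 0.41). Il31ra +42611 went from 3.34 to 39.1 tags in Egr2flfl and from 0.65 to 10.7 in LyzMCreEgr2flfl cells.

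Of the 1865 sites, 1109 were lower with the deletion for none of H3K27ac, H3K4me2, PU.1 and C/EBPβ, 494 for 1 of them, 189 for 2, 61 for 3 and 12 for all 4. Over all 4677 sites the shares were 66.4% for none, 22.2% for 1, 7.50% for 2, 3.12% for 3 and 0.812% for all 4, against 59.5%, 26.5%, 10.1%, 3.27% and 0.643% of the 1865. H3K27ac and H3K4me2 were both lower at 130 sites, which is 25.6% of the 508 and 52.4% of the 248. H3K27ac and PU.1 were both lower at 60 sites (11.8% of the 508 and 49.2% of the 122), and H3K27ac and C/EBPβ at 112 (22% of the 508 and 49.8% of the 225). Among all 1865 sites H3K27ac was lower at 27.2%, H3K4me2 at 13.3%, PU.1 at 6.54% and C/EBPβ at 12.1%. These targets were measured in separate libraries, and the overlaps were not tested.

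By what the sites held, H3K27ac fell at 37% of the 443 sites with a C57 STAT6 peak at 24 h and 24.2% of the rest. It fell at 37.2% of the 371 with a PPARγ peak and 24.8% of the rest, and at 35.2% of the 474 with a C/EBPβ peak and 24.5% of the rest. The 24 h H3K27ac level of Egr2flfl cells was also higher where a STAT6 peak lay, with a median of 37.6 against 11.9 tags, and the part of that level in the share was not tested. EGR letters went with 25.1% against 28.6% for H3K27ac and with 16.6% against 11.2% for H3K4me2. Within 1000 bp of a gene start, H3K27ac fell at 10 of 101 sites (9.90%), against 28.2% farther out, and H3K4me2 had a median of 0.33 against -0.51 log2. These shares are descriptions and were not tested.

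**Figure D5:**
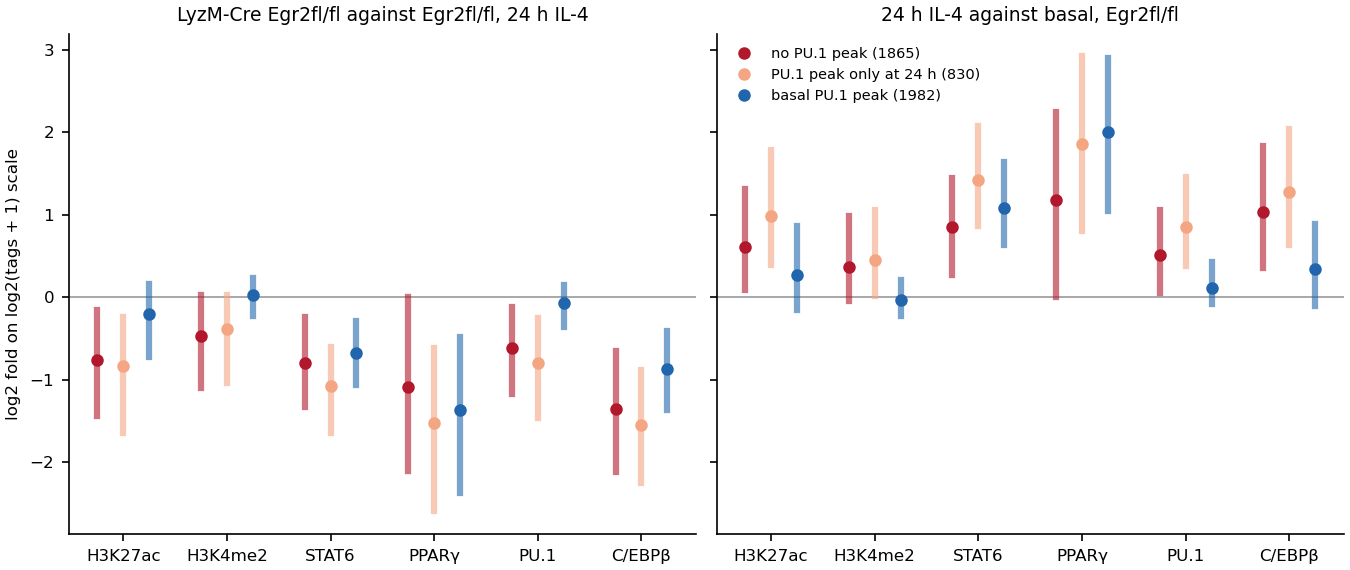
Median log2 fold (points) with quartiles (lines) of each target for the deletion at 24 h and for the IL-4 response of Egr2flfl cells, by class of PU.1 peak. For the deletion, sites without a PU.1 peak had H3K27ac at -0.76 and C/EBPβ at -1.36, and basal PU.1 sites had H3K27ac at -0.21. Sites with a PU.1 peak only at 24 h had H3K27ac at -0.84 and C/EBPβ at -1.55.

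The 3 sites with the highest H3K27ac did not pass the test for the deletion. Zeb2 +7762, in the gene of a factor that keeps macrophage identity, read 736 and 489, 1150 and 507, 875 and 846, and 1036 and 1031 H3K27ac tags, and its 24 h Egr2flfl libraries differed more from each other than the genotypes did, its log2 fold being 0.44 with both and -0.15 without replicate 2, and 1.03 without replicate 1 (limma, adjusted p = 0.024). Tbc1d22a -10815 read 615 and 798 against 554 and 690 at 24 h, and Cd69 +38524, near an activation antigen gene, 577 and 709 against 868 and 926 (log2 fold 0.49 ± 0.19, limma, adjusted p = 0.072). With median-ratio scaling, edgeR and DESeq2 the Cd69 and Zeb2 sites rose (1.05 and 1.00 log2 with the first).

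Klf6 +26997, near a zinc finger factor gene, had the highest STAT6, with 11.3 and 16.8, 42.3 and 34.5, 24.5 and 11.9, and 23.7 and 14.6 tags in the 4 groups, and PU.1 of 52.5 to 61.0 in all but 1 library, which read 44.4. The nearest C57 PU.1 peak lay 173 bp from its centre. Atp5o +77657, in an intron of an ATP synthase subunit gene, had the highest PU.1, with 121 and 97.0 in Egr2flfl and 100.2 and 111 in LyzMCreEgr2flfl cells at 24 h, so that the absence of a called peak did not mean the absence of PU.1 tags there. Gfi1 +535 had the highest H3K4me2 (278 and 236 against 286 and 302) with H3K27ac of 12.1 and 9.63 against 6.23 and 4.64. Shtn1 +4460 had the highest C/EBPβ, with 472 and 275 against 279 and 192, and 376 and 640 in basal Egr2flfl cells. None of these 4 differed between the genotypes at 24 h for the target named, by limma at an adjusted p under 0.05.

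Of 44 genes known from alternative activation by IL-4, 7 had a site without a PU.1 peak within 50000 bp, with 11 such sites, while 26 had any of the 4677 sites. H3K27ac was lower with the deletion at 24 h at 4 of the 11 sites and H3K4me2 and C/EBPβ at 1 and 2, where 23.2%, 8.94% and 8.25% of all sites were lower. Tmem26 -17467, near a transmembrane protein gene used as an IL-4 marker, read 43.5 and 25.1, 219 and 204, 28.1 and 18.5, and 95.6 and 94.0 H3K27ac tags, and rose with IL-4 in both genotypes, by 2.64 and 2.01 log2. The deletion lowered it by 1.15 ± 0.29 log2 at 24 h (limma, adjusted p = 0.0088), and the call ended with median-ratio scaling (-0.59, adjusted p = 0.15).

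Mmp12 +7994 read 29.2 and 21.2 H3K27ac tags in Egr2flfl and 1.04 and 6.96 in LyzMCreEgr2flfl cells at 24 h, and 11.8 and 24.8 against 0.72 and 3.85 for H3K4me2 (limma, adjusted p = 0.0034 and 6.7e-05). The H3K27ac call there ended with DESeq2 (adjusted p = 0.058) and without Egr2flfl 24 h replicate 1 (0.064). Myc +17364, near the growth regulator, read 57.3 and 94.4 against 15.6 and 36.6, and Plk2 +1819, in the polo-like kinase gene and with 5 EGR matches, 79.4 and 79.6 against 44.7 and 46.4. The Myc and Plk2 calls ended with median-ratio scaling, with log2 folds of -1.03 and -0.24 in place of -1.58 and -0.79. Flt1 +24774, in the VEGF receptor gene, had less C/EBPβ (189 and 87.7 against 15.6 and 17.2). Cd36 -4922 and Cish +17033, near a fatty acid receptor gene and a STAT feedback gene, read 4.02 and 2.57 against 4.16 and 1.74, and 384 and 430 against 350 and 327 for H3K27ac, without passing the test.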

How the data were processed

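ChIP-seq tags were analysed at 4677 sites in 52 libraries of Egr2flfl and LyzMCreEgr2flfl BMDMs. As the labels and the methods give it, the authors fixed cells with formaldehyde (with DSG as well for STAT6, PPARγ and EGR2), aligned reads with Bowtie2 to mm10 and counted tags with HOMER. The deposited signal values are tags scaled by the authors to 10000000 per library, and the deposited peak score of the reproducible lists was used only to order EGR2 peaks. Whole reads were recovered for 100% of values (within 0.1 of a whole number), 2 H3K27ac columns resting on the totals in the file header. Deposited signal of 4 Pol II value columns of these genotypes that matched no sample label was left out. Tag tables around the sites of other strains were not used.

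Sites without a C57 PU.1 peak (minimum overlap 1 bp) were found with Python 3.11.15, and log2(tags + 1) of all 4677 sites was fitted with limma 3.58.1 (R 4.3.3), each target apart, with cell means of genotype and IL-4 and Benjamini-Hochberg adjustment over all sites. Fold changes are on that log2 scale, which understates changes at low values. The script was tested on simulated data. Alternatives were edgeR 4.0.16 quasi-likelihood tests and DESeq2 1.42.0 on whole reads, median-ratio scaling, a pseudocount of 5, a minimum mean of 4 tags, other definitions of a site without PU.1, each library left out, and replicate number as a block.

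The sites and the gene lists were chosen with earlier results of these data known. Sites were named by rule: the 10 smallest p-values for H3K27ac with deletion, the 5 largest H3K27ac rises with IL-4 in Egr2flfl cells (at least 16 tags, no overlap), the 3 smallest deletion p-values of each other target, the highest levels, 2 sites of the tied highest EGR2 peak score (the first by position), and sites of listed IL-4 genes. A site that these texts would otherwise name is not reported here. Intervals cover counting error only.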

Additional observations from a re-analysis of the deposited data

Results flagged for a closer look

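Pol II at 5330417H12Rik -40514 moved in opposite directions with IL-4 in the 2 genotypes. It went from 19.2 to 51.0 tags in Egr2flfl cells, a log2 fold of 1.37, and from 15.6 to 5.32 in LyzMCreEgr2flfl cells, a log2 fold of -1.39. Only 1 labelled library per group was used, and the difference was not tested. H3K27ac, with 2 libraries per group, read 124 and 128 against 8.31 and 15.1 at the same site at 24 h.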

How the results depend on the processing

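Counts below are sites called in either direction among the 1865, given in the order deletion at 24 h, IL-4 in Egr2flfl and IL-4 in LyzMCreEgr2flfl unless named. No count among the 1865 changed its prevailing direction, and no call at the named sites that were checked changed sign. Signs were not compared at every site, and the cause of each shift was not tested. Libraries with few reads per site limit STAT6, PPARγ, PU.1 and C/EBPβ most. With median-ratio scaling, H3K27ac was called at 323 (deletion at 24 h) and 1 (deletion, basal), H3K4me2 at 116, 72 and 0 (basal), STAT6 at 7 (IL-4, Egr2flfl), PU.1 at 69 and 30, and C/EBPβ at 0 and 0. With DESeq2, H3K27ac was called at 195, 239 (IL-4, Egr2flfl) and 1 (basal), H3K4me2 at 23, 23, 7 (IL-4, LyzMCreEgr2flfl) and 0 (basal), STAT6 at 0 and 0 for IL-4 in the 2 genotypes, PU.1 at 9, 4 and 1, and C/EBPβ at 5, 15 and 1. With edgeR, H3K27ac was called at 1 (basal), H3K4me2 at 102, 82 and 0 (basal), STAT6 at 10 and 6 for IL-4, and C/EBPβ at 27 and 15 (deletion, and IL-4 in LyzMCreEgr2flfl). With a pseudocount of 5, the H3K27ac interaction was called at 31, H3K4me2 at 1 (basal) and 8 (interaction), STAT6 at 47 and 206, PU.1 at 243, 181 and 2 (interaction), and C/EBPβ at 417 and 238. With a mean of at least 4 tags, H3K4me2 was called at 1 (basal), STAT6 at 62 (IL-4, Egr2flfl), PPARγ at 3 (deletion), 25 (IL-4, Egr2flfl) and 2 (interaction), and PU.1 at 70, 45 and 1 (basal). Without a PU.1 peak in any of the 5 strains, 74 PU.1 calls for the deletion were left.

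With replicate number as a block, H3K27ac was called at 28 (basal) and 27 (interaction), H3K4me2 at 40 (IL-4, LyzMCreEgr2flfl) and 1 (basal), STAT6 at 58, 256, 27 and 2 (interaction), and C/EBPβ at 80 (IL-4, Egr2flfl). The other 21 counts moved by less than 1.5 times, among them the H3K27ac deletion at 616. Same-numbered libraries are not said to share an animal, and with 2 numbers the correlations of their deviations (r from 0.0054 to 0.23 over sites) do not establish pairs, so these values do not replace the main ones.

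Leaving out each library gave these ranges. H3K27ac ran from 210 to 538 (deletion at 24 h), 205 to 469 (IL-4, Egr2flfl), 0 to 20 (basal) and 0 to 5 (interaction). H3K4me2 ran from 65 to 274, 50 to 217, 10 to 28 (IL-4, LyzMCreEgr2flfl), 0 to 5 (basal) and 0 to 5 (interaction). STAT6 ran from 0 to 1 (deletion), 0 to 114 and 0 to 4 (IL-4). PPARγ ran from 0 to 142 (deletion), 0 to 140 and 0 to 35 (IL-4), 0 to 35 (basal) and 0 to 121 (interaction). PU.1 ran from 0 to 173 (deletion), 0 to 107 and 1 to 22 (IL-4) and 0 to 3 (basal), and C/EBPβ from 0 to 243 (deletion) and 0 to 58 (IL-4, Egr2flfl). A lone library left in a group was assumed to vary like the other groups.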

Other observations

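Outside the genotype comparison, the basal EGR2 peak lists of the strains differed at these sites. A basal EGR2 peak overlapped 0.643% of the 1865 sites in C57 cells, 37.7% in BALB, 34.2% in NOD, 5.95% in SPRET and 1.93% in PWK. In NOD the 24 h share, 28.1%, was below the basal one. The same held at basal PU.1 sites (20.4% against 32.6%) and at sites with PU.1 at 24 h only (29.9% against 35.1%). The basal BALB shares in those classes were 42.3% and 41.9%. These differences between strains were thus not particular to the 1865 sites. The set is named as induced by IL-4, and every site had a C57 EGR2 peak at 24 h. The low C57 basal share is therefore not read as a finding. PU.1 peaks of another strain, basal or at 24 h, overlapped 487 of the sites that had none in C57 cells.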
